A study of Apostichopus japonicus with 3 samples.

Results

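Transcripts of the ubiquitin system were followed through summer dormancy in the respiratory tree of the sea cucumber Apostichopus japonicus. The members were the isotigs, that is the assembled transcripts of a reference transcriptome, whose best protein match carries ubiquitin, tripartite motif, cullin, F-box, RING finger, SUMO, NEDD8 or kelch-like in its name. Names with proteasome, 26S protease or ubiquinone were left out. This gave 131 members among the 20991 isotigs to which any read was assigned. Stages were compared for the 82 members whose reads in the 3 libraries added up to at least 20, and the other 49 were too rare.

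Sea cucumbers breathe through this organ, a pair of branching tubes inside the body. It was sampled outside dormancy (non-aestivation), in deep aestivation, when the animals neither feed nor move, and during arousal. Each stage had 1 poly(A) RNA library. The experiments used at least 15 animals a stage, and whether a library pools them is not stated. No genotype, treatment or age is given, and the labels name no batch, so a difference between libraries and a difference between stages cannot be told apart.

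Ubiquitin is a small protein that cells attach to other proteins as a tag. An activating enzyme (E1) charges it, a conjugating enzyme (E2) carries it, and a ligase (E3) chooses the target, while deubiquitinases take it off again. Chains of ubiquitin often send a protein to the proteasome for breakdown, other forms of the tag alter where a protein goes or what it binds, and SUMO and NEDD8 are related tags with enzymes of their own.

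Uniquely counted reads came to 0.941 M in the non-aestivation, 0.887 M in the deep aestivation and 0.963 M in the arousal library. A single read on a 1 kb isotig adds 1.06, 1.13 or 1.04 RPKM, which are reads per kilobase per 1e6 reads. Members took 4897, 4019 and 4170 of these reads at non-aestivation, deep aestivation and arousal, which is 5202, 4530 and 4330 reads per 1e6 (RPM). All isotigs with a protein match took 601697, 523894 and 479922 RPM. That is 1.15-fold lower in deep aestivation and 1.25-fold lower at arousal than at non-aestivation, and the class sums below stand beside it. In the same stages a read was found for 125, 114 and 114 of the 131 members, and 106 members had reads in all 3 libraries. With 1 library per stage there is no p-value, and a member is called higher or lower where log2(RPKM + 0.5) differs by at least 1, which is 2-fold. A ratio of single isotigs is the ratio of their read rates with an exact 95% interval. It covers counting error only and leaves out differences between animals and between libraries. Copies made by PCR were not told from separate molecules, which can make the interval too narrow.

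Names are those of the best match, mostly in other animals: 41 members matched a purple sea urchin protein, 35 an acorn worm protein and 1 a protein of the sea cucumber itself. The match was weak, with an E-value above 1e-20, for 28 of the 131 members and for 12 of the 82 compared. Weak matches among the members named below include UCH-L3 (9.0e-08), MARCH6 (9.4e-10), PHD and RING finger protein 1 (1.9e-11) and RNF31 (1.6e-13). Gene ontology terms deposited with the isotigs gave a molecular function for 59 members, of which 14 had small conjugating protein ligase activity and 7 a protease activity, and a biological process for 47, of which 17 had a catabolic one. Reads had been counted only where they mapped uniquely, so isotigs of near-identical sequence split or lose reads. Of the members, 23 share their matched protein with another member, 10 proteins in all. How far ubiquitin-coding isotigs share sequence was not tested. No strand-keeping kit is described, so reads may also come from transcripts of the opposite strand.

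In deep aestivation, few members were higher and more were lower than at non-aestivation, at shares near those of isotigs with any protein match. Of the 82 members, 6 were higher (7.32%) and 17 lower (20.7%). Over isotigs with a protein match, 8.0% were higher and 24.2% lower, and over all 10896 isotigs compared 13.1% and 18.6%. The median log2 ratio of members was -0.29, against -0.36 for isotigs with a protein match and -0.12 for all isotigs. Of the 82 ratios, 52 (63.4%) lay below 0, beside 65.9% for isotigs with a protein match. Where the interval also had to exclude equal rates, 6 members were higher and 15 lower, beside 6.35% and 20.2% of isotigs with a protein match. Centred on isotigs with a protein match, 9 members were higher and 13 lower, which puts 40.9% of the called members on the higher side against 26.1% without centring. The shares of isotigs with a protein match called after centring are not given.

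Between arousal and deep aestivation, 7 members were higher (8.54%) and 11 lower (13.4%), beside 7.63% and 9.71% of isotigs with a protein match and 8.06% and 8.93% of all isotigs. The members' median log2 ratio was -0.11, against -0.07 for isotigs with a protein match. With the interval rule only 2 of the 7 higher and 8 of the 11 lower members were left, beside 4.52% and 6.0% of isotigs with a protein match.

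Between arousal and non-aestivation, 2 members were higher (2.44%) and 24 lower (29.3%), beside 6.68% and 25.6% of isotigs with a protein match and 12.5% and 18.8% of all isotigs. The median was -0.47, against -0.40 for isotigs with a protein match. The interval rule left 2 higher and 19 lower, beside 5.21% and 21.6%. Centred on isotigs with a protein match, 6 members were higher and 11 lower, which puts 35.3% of the called members on the higher side against 7.69% without centring. Here too the shares of other isotigs after centring are not given. Of the 17 members lower in deep aestivation, 10 were also lower at arousal than at non-aestivation and 5 were higher at arousal than in deep aestivation. Of the 6 that were higher in deep aestivation, 2 were also higher at arousal than at non-aestivation and 3 were lower at arousal than in deep aestivation. These comparisons share libraries, so the counts are not independent of each other. The same overlaps over isotigs with a protein match are not given, so the counts show nothing particular to the members.

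The 31 members with at least 100 reads summed gave fewer calls. Of them 2 were higher and 4 lower in deep aestivation than at non-aestivation, beside 7.88% and 18.7% of isotigs with a protein match and as many reads. At arousal 1 was higher and 1 lower than in deep aestivation, beside 3.99% and 5.14%, and 1 was higher and 4 lower than at non-aestivation, beside 6.25% and 18.3%.

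**Figure D1:**
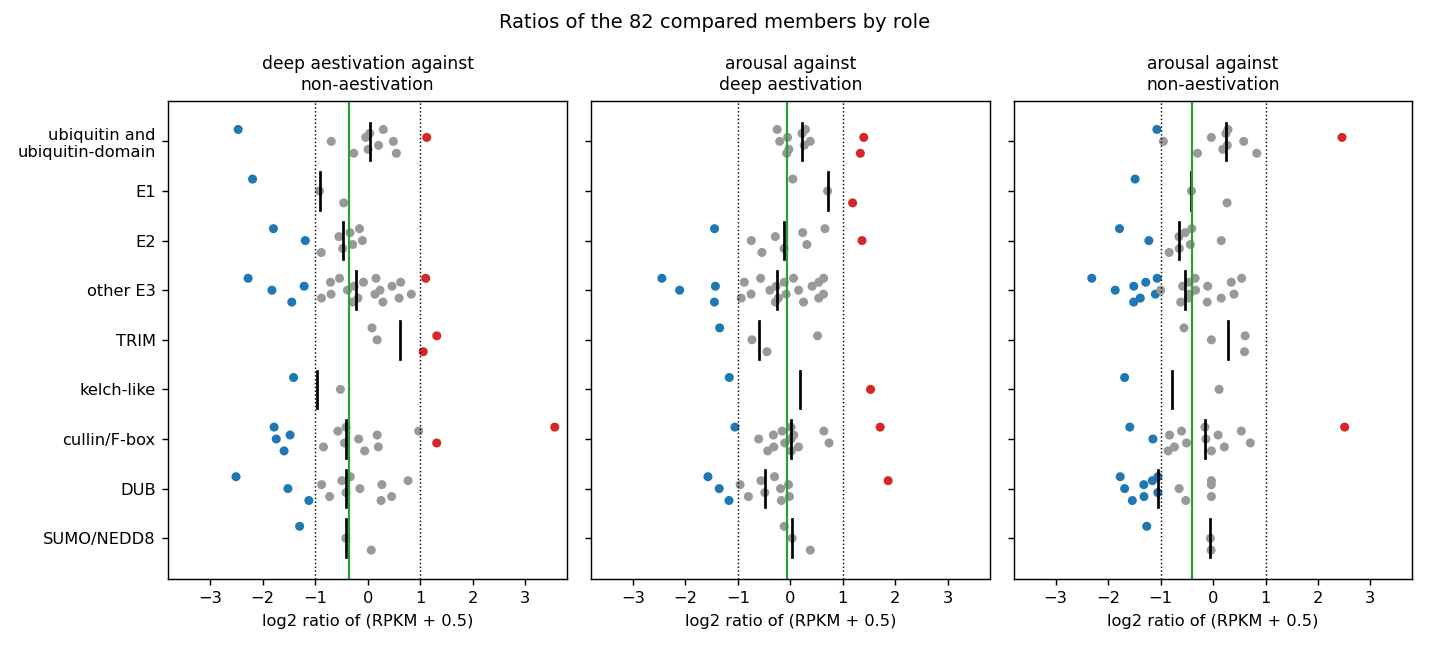
Log2 ratio of RPKM + 0.5 (horizontal axis) of the 82 compared members, 1 point each, by role (rows), with 1 panel per comparison. Points beyond the dotted lines at 1 and -1 are called higher (red) or lower (blue), the black bar is the role's median and the green line the median of isotigs with a protein match. The deubiquitinases of arousal against non-aestivation all lie below 0, with a median of -1.05, as do 69.1% of isotigs with a protein match.

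The members spanned a wide range of abundance. The median RPKM of the 82 compared members was 25 at non-aestivation, 23.9 in deep aestivation and 17.9 at arousal, and 10, 8 and 7 of them exceeded 100 RPKM. Below 10 RPKM were 3 members at non-aestivation, against 15 in deep aestivation and 15 at arousal. The 10 most abundant members took 48.9, 53.3 and 55.1% of all member reads at the 3 stages. The share of member reads on ubiquitin and ubiquitin-domain proteins was 24.9, 31.3 and 36.7% at non-aestivation, deep aestivation and arousal, while that on deubiquitinases was 8.37, 6.82 and 5.23%.

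The most abundant member in each library was a ubiquitin fusion. The class of ubiquitin and ubiquitin-domain proteins had 11 compared members of 14, of which 1 was higher and 1 lower in deep aestivation than at non-aestivation. At arousal 2 were higher and 0 lower than in deep aestivation, and 1 was higher and 1 lower than at non-aestivation. Of isotigs with a protein match, 8.0% were higher and 24.2% lower in the first of these comparisons. The shares were 7.63% and 9.71% in the second and 6.68% and 25.6% in the third. Summed over the class, RPM values were 1297 at non-aestivation, 1418 in deep aestivation and 1591 at arousal.

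The ubiquitin fusion with 40S ribosomal protein S27a, the precursor from which one ubiquitin copy and a ribosomal protein are cut, had 928, 933 and 1120 RPKM at non-aestivation, deep aestivation and arousal, and stayed within 2-fold. An isotig named ubiquitin family protein had 114, 157 and 208 reads in these libraries, or 378, 553 and 675 RPKM. At arousal it stood 1.78-fold above non-aestivation (1.41 to 2.26), below the 2-fold call.

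The isotig named only ubiquitin went further, with 15 reads (48.4 RPKM) at non-aestivation, 31 (106 RPKM) in deep aestivation and 85 (268 RPKM) at arousal. It was 2.19-fold higher in deep aestivation than at non-aestivation (1.15 to 4.37), 2.53-fold higher at arousal than in deep aestivation (1.66 to 3.94) and 5.54-fold higher at arousal than at non-aestivation (3.18 to 10.3). The best matches of this isotig and of the ubiquitin family protein lie in Plasmodium knowlesi and Trichinella spiralis. Ubiquitin is nearly identical across eukaryotes, so the match does not tell which organism or which ubiquitin gene the transcript comes from, and that was not tested. A polyubiquitin isotig, the form in which ubiquitin copies are strung together, had 0, 2 and 0 reads at the 3 stages, too few to compare.

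Most other ubiquitin-domain proteins were not called. The match to HERPUD2, a membrane protein of the endoplasmic reticulum with a ubiquitin-like domain, had 69.7, 97.9 and 85 RPKM at non-aestivation, deep aestivation and arousal, and ubiquitin-like protein 5, known for its part in pre-mRNA splicing, had 59.8, 58.2 and 68.0 RPKM. The only lower member of the class was the match to UBASH3B, a tyrosine phosphatase with a ubiquitin-associated domain, with 25, 4 and 12 reads at non-aestivation, deep aestivation and arousal. It was 5.89-fold lower in deep aestivation than at non-aestivation (2.03 to 23.3) and 2.13-fold lower at arousal than at non-aestivation (1.03 to 4.66). The second of these fell short of 2-fold under TMM or median-of-ratios scaling.

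**Figure D2:**
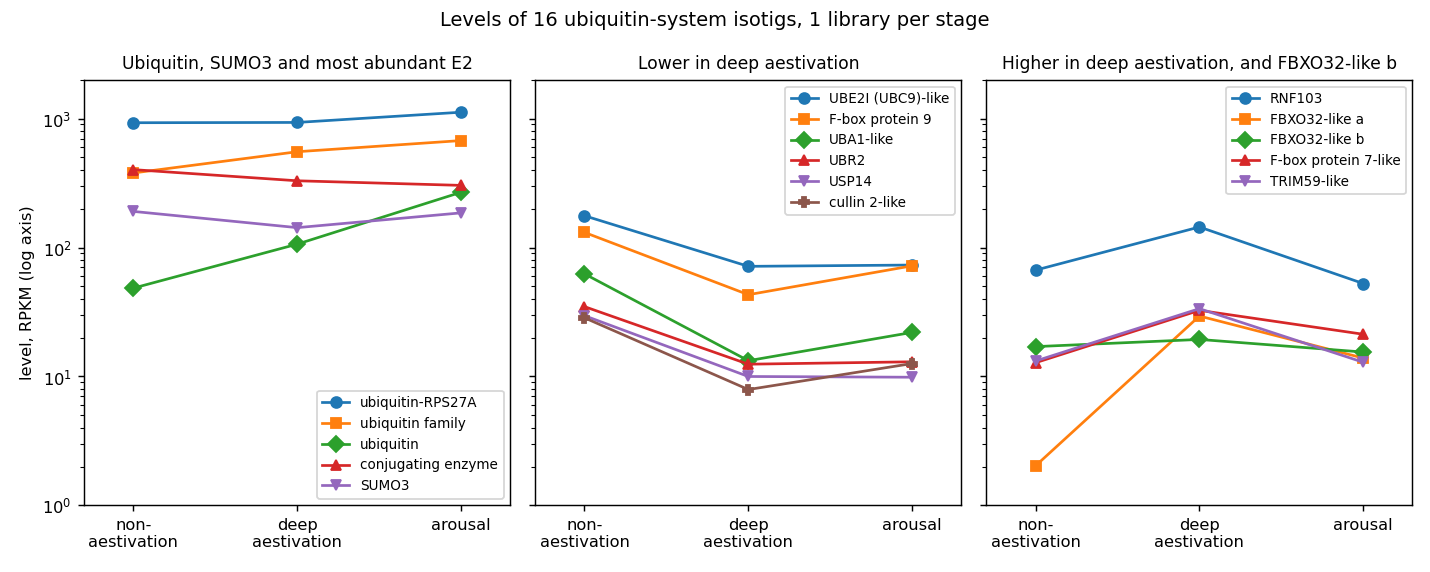
RPKM (vertical axis, logarithmic) of 16 members in the 3 libraries, 1 line per isotig, from non-aestivation to arousal. The ubiquitin isotig climbs to 268 RPKM at arousal, RNF103 peaks at 144 RPKM in deep aestivation, and the UBA1-like isotig drops to 13.3 RPKM there.

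Of the activating enzymes, which stand at the head of the cascade, the match to UBA1, the main E1 of animals, fell in deep aestivation. It had 75 reads (62.4 RPKM) at non-aestivation, 15 (13.3 RPKM) in deep aestivation and 27 (22 RPKM) at arousal. The deep aestivation library was 4.71-fold lower than the non-aestivation library (2.68 to 8.83), and arousal was 2.84-fold lower than non-aestivation (1.81 to 4.59). Reads covered 91.5% of this isotig at non-aestivation, 33.5% in deep aestivation and 57.0% at arousal.

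Both other E1 isotigs match 1 sea urchin protein and had 25, 12 and 31 reads and 12, 8 and 9 reads at non-aestivation, deep aestivation and arousal. Summed, they had 37, 20 and 40 reads, and arousal exceeded deep aestivation 1.84-fold (1.05 to 3.33). Their sum was 1.74-fold lower in deep aestivation than at non-aestivation (0.986 to 3.17), an interval that holds equal rates. The isotig with more reads was called higher at arousal than in deep aestivation, at 2.38-fold (1.19 to 5.09). Reads covered 16.2, 10.5 and 17.3% of it at the 3 stages, and 7.99, 5.68 and 6.5% of the other. All 3 E1 isotigs together were 3.02-fold lower in deep aestivation than at non-aestivation (2.05 to 4.54), with 35 reads against 112, and the UBA1-like isotig held most of that difference.

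Few conjugating enzymes were called. Of 9 compared members of 11, 0 were higher and 2 lower (22.2%) in deep aestivation than at non-aestivation, beside 24.2% lower of isotigs with a protein match. All 9 ratios lay below 0, beside 65.9% of those of isotigs with a protein match. The median was -0.48, against -0.36 for isotigs with a protein match. At arousal, 1 was higher and 1 lower than in deep aestivation, beside 7.63% and 9.71% of isotigs with a protein match. Against non-aestivation 0 were higher and 2 lower at arousal, beside 6.68% and 25.6%. Summed over the class, RPM values were 951 at non-aestivation, 769 in deep aestivation and 690.5 at arousal.

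The most abundant E2, named only ubiquitin conjugating enzyme, had 402, 329 and 303 RPKM at non-aestivation, deep aestivation and arousal. The match to E2 variant 2, an E2-like protein without catalytic activity that helps build certain ubiquitin chains in other eukaryotes, had 234, 218 and 150 RPKM. The matches to E2G1 and to E2A, an enzyme of histone and DNA-damage ubiquitination in mammals, had 124, 84.5 and 69.2 RPKM and 135, 121 and 151 RPKM in the same libraries. None of these 4 passed 2-fold in a comparison.

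UBE2H was lower only in the comparisons with the arousal library: it had 35, 26 and 10 reads at non-aestivation, deep aestivation and arousal, and arousal was 2.82-fold lower than deep aestivation (1.32 to 6.56) and 3.58-fold lower than non-aestivation (1.74 to 8.11). The match to E2C, which works with the anaphase-promoting complex in mitosis, had 12, 3 and 9 reads and was 3.77-fold lower in deep aestivation than at non-aestivation (1.02 to 20.8). That to E2T, an E2 of DNA crosslink repair in mammals, had 10, 4 and 7 reads, and its interval of 0.680 to 10.3 for the fold by which it was lower holds equal rates.

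RING finger proteins and other ligases formed the largest class, with 34 members and 22 compared. The class was set by names, so it holds RING finger proteins whether or not they are ligases, such as the match to RING finger subunit MAT1. In deep aestivation 1 was higher and 4 lower (18.2%) than at non-aestivation, beside 24.2% lower of isotigs with a protein match. At arousal 0 were higher and 4 lower (18.2%) than in deep aestivation, beside 9.71%, and 0 were higher and 8 lower (36.4%) than at non-aestivation, beside 25.6%. Under TMM or median-of-ratios scaling 6 were lower in that last comparison, and 4 when centred on isotigs with a protein match. The shares of other isotigs called at these settings are not given. Their summed level was 928 RPM at non-aestivation, 886 in deep aestivation and 630 at arousal.

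The member that rose was RNF103, in mammals a ligase of the endoplasmic reticulum membrane. It had 108 reads (66.7 RPKM) at non-aestivation, 220 (144 RPKM) in deep aestivation and 87 (52.6 RPKM) at arousal. Deep aestivation was 2.16-fold above non-aestivation (1.71 to 2.75), and arousal was 2.74-fold below deep aestivation (2.13 to 3.56). It was the most abundant ligase of the class on average, and its deep aestivation library stood apart from both others by more than the counting error. The 2-fold limit was not passed by MARCH6, a ligase of the same membrane in other eukaryotes, with 33.9, 60.7 and 49.7 RPKM at non-aestivation, deep aestivation and arousal, nor by the PHD and RING finger protein 1 match with 26.7, 41.6 and 35.4 RPKM.

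The ligases that fell in deep aestivation were matches to UBR2, RNF168, MARCH2 and Bre1. UBR2, which recognises destabilising N-terminal residues, had 89, 30 and 34 reads at non-aestivation, deep aestivation and arousal, and it was 2.80-fold lower in deep aestivation than at non-aestivation (1.83 to 4.38) and 2.68-fold lower at arousal than at non-aestivation (1.79 to 4.10). The match to RNF168, a ligase of histones at DNA breaks, had 32, 8 and 13 reads and was 3.77-fold lower in deep aestivation than at non-aestivation (1.70 to 9.47). That to MARCH2, a ligase of membrane proteins, had 23, 4 and 6 reads and was 5.42-fold lower (1.85 to 21.6). All 3 were also lower at arousal than at non-aestivation. Bre1, which ubiquitinates histone H2B, had 25, 10 and 17 reads and was 2.36-fold lower in deep aestivation than at non-aestivation (1.09 to 5.50). Centred on isotigs with a protein match, the log2 ratio of Bre1 was -0.85, short of 2-fold. A second H2B ligase match, RNF20, the mammalian counterpart of Bre1, had 84, 66 and 80 reads and 41.3, 34.4 and 38.4 RPKM, within 2-fold.

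Lower at arousal was UFD2, the chain-elongating ligase also called E4B, with 26, 27 and 5 reads at non-aestivation, deep aestivation and arousal. It was 5.86-fold lower at arousal than in deep aestivation (2.23 to 19.5) and 5.32-fold lower at arousal than at non-aestivation (2.01 to 17.7). Another chain-elongating factor, E4A, was matched by 2 isotigs with 62, 40 and 41 reads and 23, 19 and 11 reads, and of these only the rarer was called lower at arousal than at non-aestivation (2.14-fold, 1.0 to 4.86). A RING finger and KH domain protein had 40, 23 and 19 reads and was 2.15-fold lower at arousal than at non-aestivation (1.22 to 3.94), and both this difference and that of E4A fell just short of 2-fold when the libraries were scaled by TMM or by median-of-ratios factors. The match to RNF31, a ligase of linear ubiquitin chains in mammals, had 59, 30 and 30 reads and stayed just within the 2-fold limit. HERC1, a very large HECT ligase, had 9, 13 and 3 reads and was 4.70-fold lower at arousal than in deep aestivation (1.29 to 25.7).

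Tripartite motif proteins, a family of RING ligases that includes many immune factors in vertebrates, had 14 members but only 4 compared. In deep aestivation 2 were higher and 0 lower than at non-aestivation, beside 8.0% and 24.2% of isotigs with a protein match. The match to TRIM59 had 10, 24 and 10 reads at non-aestivation, deep aestivation and arousal, 2.55-fold higher in deep aestivation than at non-aestivation (1.17 to 5.97) and 2.61-fold lower at arousal than in deep aestivation (1.2 to 6.1). One of several isotigs named TRIM2-like, in mammals a ligase of the nervous system, had 12, 24 and 19 reads and was 2.12-fold higher in deep aestivation (1.02 to 4.66). It shares its matched protein with 3 other isotigs, and summed over all 4 the reads were 24, 36 and 40, for a ratio of 1.59 (0.924 to 2.79) that holds equal rates. The most abundant tripartite motif member, also TRIM2-like, had 59, 63 and 41 reads and was not called.

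Kelch-like proteins, which bring targets to cullin-3, had 7 members and 2 compared. KEAP1, the adaptor that keeps the antioxidant regulator NRF2 low in vertebrates, was matched by 3 isotigs, and only 1 of them was compared. It had 9, 3 and 10 reads at non-aestivation, deep aestivation and arousal. It was called lower in deep aestivation and higher at arousal than in deep aestivation, with intervals that hold equal rates in both. Summed over the 3 isotigs, KEAP1 had 23, 6 and 12 reads and was 3.61-fold lower in deep aestivation than at non-aestivation (1.43 to 10.8). Kelch-like 18 had 17, 11 and 5 reads and was 3.48-fold lower at arousal than at non-aestivation (1.23 to 12.1).

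Cullins are scaffolds of multi-subunit ligases, and F-box proteins are the parts that bind the target in cullin-1 ligases. Of 15 compared members of 24, 2 were higher (13.3%) and 4 lower (26.7%) in deep aestivation than at non-aestivation, beside 8.0% and 24.2% of isotigs with a protein match. At arousal 1 was higher and 1 lower than in deep aestivation, beside 7.63% and 9.71% of isotigs with a protein match. Against non-aestivation 1 was higher and 2 lower at arousal, beside 6.68% and 25.6%. The level summed over the class was 688 RPM at non-aestivation, 503 in deep aestivation and 486 at arousal.

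The largest ratio of any compared member belonged to an isotig that matches F-box only protein 32, in mammals a muscle ligase part also called atrogin-1 that is induced in wasting muscle. It had 3 reads (2.03 RPKM) at non-aestivation, 41 (29.4 RPKM) in deep aestivation and 21 (13.9 RPKM) at arousal. Deep aestivation was 14.5-fold above non-aestivation (4.63 to 73.2), arousal was 2.12-fold below deep aestivation (1.22 to 3.77), and arousal was 6.84-fold above non-aestivation (2.04 to 35.8). With 3 reads in the non-aestivation library the size of the ratio is loosely known, as the interval shows. Reads covered 9.36% of the isotig at non-aestivation, 67.0% in deep aestivation and 46.4% at arousal.

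An isotig matching another isoform of F-box only protein 32 did not follow it, with 14, 15 and 13 reads (17.0, 19.4 and 15.5 RPKM) at non-aestivation, deep aestivation and arousal. The match to F-box protein 7 had 10, 24 and 17 reads and was 2.55-fold higher in deep aestivation than at non-aestivation (1.17 to 5.97). In the other direction, F-box protein 9 had 71, 22 and 40 reads and was 3.04-fold lower in deep aestivation than at non-aestivation (1.86 to 5.15). FBXW4, an F-box protein with WD repeats, was matched by an isotig with 12, 3 and 12 reads, 3.77-fold lower in deep aestivation than at non-aestivation (1.02 to 20.8). The F-box members called in deep aestivation thus differed in direction between the same libraries.

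Among the scaffolds, cullin-3 was the most abundant, with 258, 135 and 148 reads (91.3, 50.7 and 51.2 RPKM) at non-aestivation, deep aestivation and arousal. It was 1.80-fold lower in deep aestivation than at non-aestivation (1.46 to 2.23), a difference beyond counting error but below the 2-fold call. The match to cullin 2, the scaffold of ligases with elongins, had 42, 11 and 19 reads, 3.6-fold lower in deep aestivation than at non-aestivation (1.82 to 7.75) and 2.26-fold lower at arousal than at non-aestivation (1.29 to 4.12). Matches to cullin 1 and cullin 4A had 58, 63 and 69 reads and 48, 33 and 32 reads and were not called. DCUN1D5, from a family that promotes the attachment of NEDD8 to cullins, had 25, 8 and 8 reads and was 2.95-fold lower in deep aestivation (1.29 to 7.55) and 3.20-fold lower at arousal (1.40 to 8.20) than at non-aestivation.

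**Figure D3:**
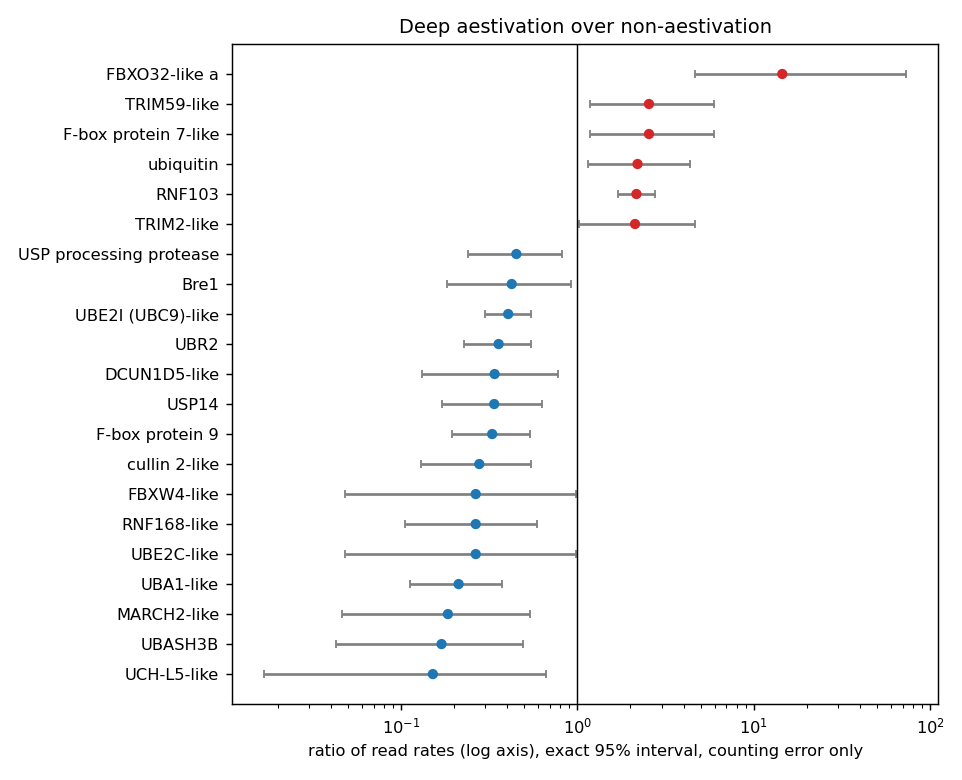
Ratio of read rates, deep aestivation over non-aestivation (horizontal axis, logarithmic), with exact 95% intervals, for the 21 members called at 2-fold whose interval excludes 1. The FBXO32-like isotig lies farthest to the right, at 14.5, and the UCH-L5-like, UBASH3B and MARCH2-like isotigs have the lowest ratios with wide intervals.

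Without scaling factors, most compared deubiquitinases, the enzymes that remove ubiquitin, were called lower at arousal than at non-aestivation. Of 13 compared members of 19, 0 were higher and 8 lower (61.5%), beside 25.6% of isotigs with a protein match. All 13 ratios lay below 0 with a median of -1.05, beside 69.1% below 0 and a median of -0.40 for isotigs with a protein match. For 6 of the 8 the interval excluded equal rates. Of 13, 6 were lower under TMM or median-of-ratios scaling, and 3 when centred on isotigs with a protein match. The shares of other isotigs called at these settings are not given. Summed over the class there were 218 reads at arousal against 410 at non-aestivation, 1.92-fold lower (1.63 to 2.28), beside 1.25-fold for isotigs with a protein match. Whether the share called lower differs from that of other transcripts was not tested. In deep aestivation 0 were higher and 3 lower (23.1%) than at non-aestivation, near the 24.2% lower of isotigs with a protein match, with 274 reads summed. At arousal 1 was higher and 3 lower than in deep aestivation, beside 9.71% of isotigs with a protein match that were lower.

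USP14 and UCH-L5, deubiquitinases that bind the proteasome, fell in deep aestivation. USP14 had 44, 14 and 15 reads (29.6, 9.99 and 9.86 RPKM) at non-aestivation, deep aestivation and arousal, 2.96-fold lower in deep aestivation (1.59 to 5.85) and 3.0-fold lower at arousal (1.64 to 5.81) than at non-aestivation. The match to UCH-L5 had 14, 2 and 9 reads and was 6.60-fold lower in deep aestivation than at non-aestivation (1.52 to 59.8). The third called lower, named ubiquitin-specific processing protease, had 40, 17 and 18 reads and was 2.22-fold lower in deep aestivation than at non-aestivation (1.23 to 4.17).

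Several others were called lower at arousal than at non-aestivation but were not called in deep aestivation. HAUSP, also called USP7, which stabilises p53 and its ligase in mammals, had 39, 26 and 19 reads at non-aestivation, deep aestivation and arousal, 2.10-fold lower at arousal than at non-aestivation (1.18 to 3.85). USP4 had 34, 24 and 10 reads, 3.48-fold lower (1.68 to 7.89), and a putative carboxyl-terminal hydrolase had 23, 26 and 9 reads, 2.61-fold lower (1.17 to 6.42). UCH-L3, a weak match (E-value 9.0e-08), had 51, 26 and 25 reads, 2.09-fold lower at arousal (1.27 to 3.52). In deep aestivation UCH-L3 was 1.85-fold lower than at non-aestivation (1.13 to 3.09), beyond counting error but below the 2-fold call. At arousal HAUSP and UCH-L3 both fell just short of 2-fold under TMM or median-of-ratios scaling. Matches to USP15 and USP26 were also called, with intervals that hold equal rates. Summed over both isotigs of the USP26 match there were 18, 8 and 3 reads, 6.14-fold lower at arousal than at non-aestivation (1.79 to 32.5). Ubiquitin hydrolyzing enzyme I, the most abundant by mean RPKM, with 66.1, 52.4 and 45.9 RPKM, and the histone deubiquitinases BAP1 (13, 17 and 13 reads) and USP22 (7, 8 and 7 reads) were not called in a comparison.

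The SUMO and NEDD8 class had 3 compared members of 5. SUMO3, the only member matched to a protein of this species, had 190, 143 and 186 RPKM at non-aestivation, deep aestivation and arousal. The match to UBC9, the conjugating enzyme of SUMO, had 165, 63 and 70 reads (176, 71.4 and 73.1 RPKM) and was 2.47-fold lower in deep aestivation (1.84 to 3.35) and 2.41-fold lower at arousal (1.81 to 3.24) than at non-aestivation. SAE2, a subunit of the SUMO activating enzyme, had 82, 81 and 81 reads. SAE2 and SUMO3 were not called in a comparison. Centred on isotigs with a protein match, the UBC9 match fell short of 2-fold, at log2 ratios of -0.94 in deep aestivation and -0.86 at arousal against non-aestivation.

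**Figure D4:**
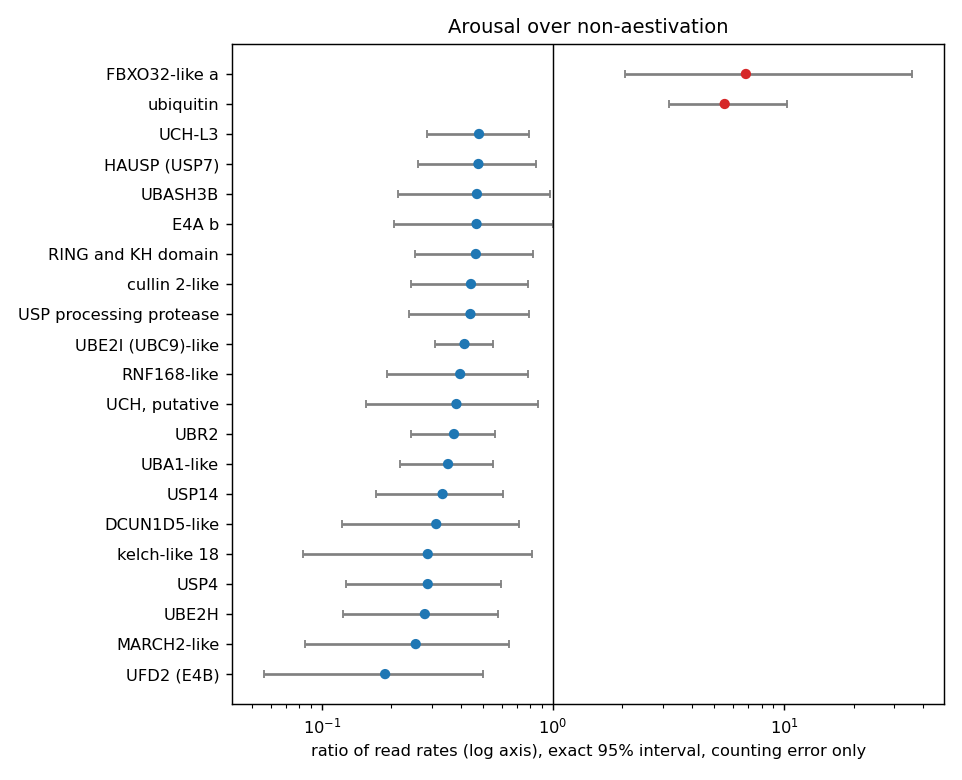
Ratio of read rates, arousal over non-aestivation (horizontal axis, logarithmic), with exact 95% intervals, for the 21 members called at 2-fold whose interval excludes 1. Only the FBXO32-like isotig at 6.84 and ubiquitin at 5.54 lie to the right of 1.

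The 49 members with fewer than 20 reads summed had 1 to 19 reads. They include 10 of the 14 tripartite motif members and 5 of the 7 kelch-like members, so these classes are known mainly from their few deeper isotigs. Differences of 2-fold are not resolved at such depth, and no ratio is given for them.

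The proteasome, the protease that degrades ubiquitin-tagged proteins, is no part of the members and was set beside them. Of 24 compared proteasome isotigs of 30, 0 were higher and 17 lower in deep aestivation than at non-aestivation (70.8%), with a median log2 ratio of -1.42, against 20.7% and -0.29 for the members. At arousal 3 were higher and 0 lower than in deep aestivation, with a median of 0.48, beside 7.63% and 9.71% of isotigs with a protein match. Against non-aestivation 0 were higher and 10 lower at arousal, beside 6.68% and 25.6%. Summed proteasome reads were 1621 at non-aestivation, 699 in deep aestivation and 1037 at arousal. Deep aestivation was 2.19-fold lower than non-aestivation (2.0 to 2.39), while the members' sum was 1.15-fold lower (1.1 to 1.2). The sum of all isotigs with a protein match was 1.15-fold lower as well (1.14 to 1.15).

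The segregase VCP, an ATPase that pulls ubiquitin-tagged proteins out of complexes and membranes, fell as well. Its match had 552, 148 and 192 reads (247, 70.3 and 84.0 RPKM) at non-aestivation, deep aestivation and arousal, 3.52-fold lower in deep aestivation (2.93 to 4.24) and 2.94-fold lower at arousal (2.49 to 3.48) than at non-aestivation. A shorter isotig named valosin had 40, 15 and 7 reads and was also called lower in both later libraries, and NPL4, a partner of VCP, had 57, 31 and 48 reads and was not called. Of cullin-ligase partners outside the members 2 of 4 were compared, and of ligases with other names 4 of 8, and 0 of either were called in any comparison. Of isotigs with a protein match, 32.2% were called in deep aestivation and 32.3% at arousal against non-aestivation. Between arousal and deep aestivation 17.3% were called. Too few partners and other ligases were compared to set against these shares.

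**Figure D5:**
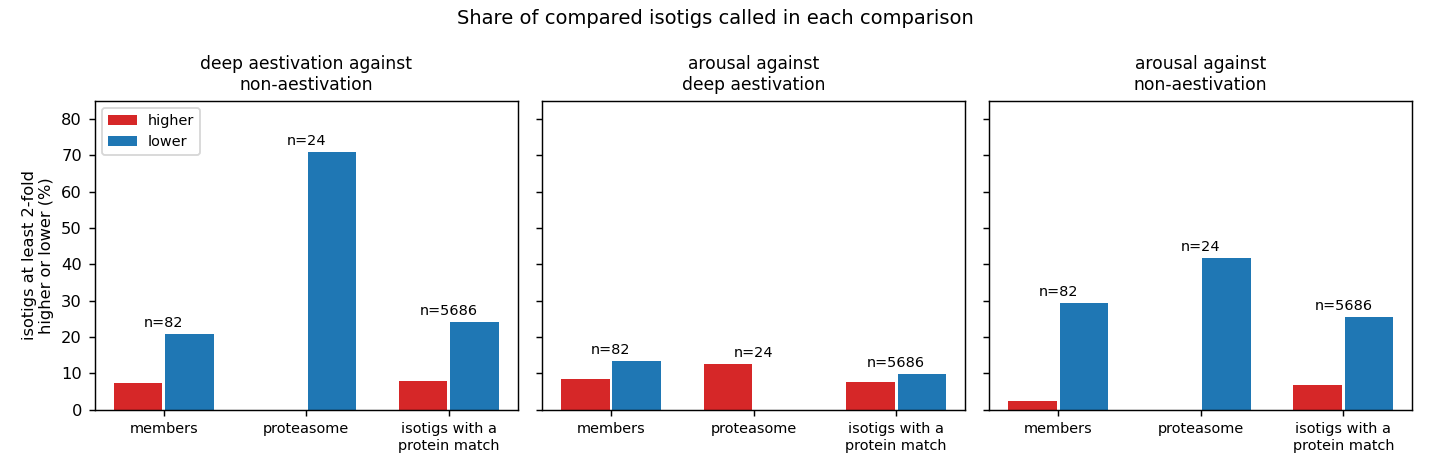
Percent of compared isotigs (vertical axis) called higher (red) and lower (blue) in each comparison, for the members (n = 82), proteasome isotigs (n = 24) and all isotigs with a protein match (n = 5686). In deep aestivation against non-aestivation 20.7% of members and 70.8% of proteasome isotigs were lower.

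Markers of cells that an organ sample could hold also differed between the libraries. Fewer cells of a type and less RNA per cell cannot be told apart in such samples. Germ cell names (40 isotigs) summed to 615, 316 and 254 RPM at non-aestivation, deep aestivation and arousal, and bindin, the sperm adhesion protein, had 61, 0 and 0 reads. Ciliary names (41 isotigs) had 412, 311 and 216, muscle names (39 isotigs) 3537, 3120 and 2615, and coelomocyte names (99 isotigs) 4483, 2859 and 3413 RPM. Each list was lower in both later libraries than at non-aestivation. So was the sum of isotigs with a protein match, at 601697, 523894 and 479922 RPM. The lists were mixed: in deep aestivation against non-aestivation, 6 of 16 compared germ cell, 6 of 13 ciliary and 22 of 56 coelomocyte isotigs had log2 ratios above 0. The part of these cell types in the members' differences was not tested. The muscle list was 1.13-fold lower in deep aestivation than at non-aestivation (1.08 to 1.19), and 7 of its 22 compared isotigs had log2 ratios above 0. Whether the FBXO32-like isotig varies with muscle content was not tested.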

How the data were processed

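Poly(A) RNA of respiratory trees was captured with oligo(dT), fragmented and copied from random primers, per the labels' protocols. CASAVA 1.5 was used, per the submitters' processing notes, and for the aligner the sources used here give no name. Per the file headers, the authors deposited counts of reads mapped uniquely to each isotig, RPKM computed from those counts, isotig length and total, and a coverage in percent of each isotig's length. The deposited RPKM matched recomputation within a relative tolerance of 1e-09. Isotigs that a table lacks got 0 reads. Each of the 3 stages has 1 library, so nothing was tested for significance.

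Differences are of log2(RPKM + 0.5), a scale that understates changes of rare transcripts, among isotigs with at least 20 reads summed. Intervals are exact conditional binomial (Clopper-Pearson). The members and lists were chosen with earlier results of these data known. Members were put in 9 role classes by patterns on their names, with 8 reassigned after the names were read. The naming rule took members called at 2-fold that had 40 or more reads in the higher of the libraries compared (up to 10 per direction and comparison), the most abundant and the most changed member of each class, and the 10 with the highest RPKM per library. It gave 24 members, and the others named as examples of their class were chosen after their values were seen. Proteasome, segregase, partner and marker lists were patterns on names. The isotig names could not be joined to the reference gene table, so no genome positions or sequences are given.

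Other settings tried were scaling by TMM (edgeR 4.0.16) or by the median of ratios (DESeq2 1.42.0), a pseudocount of 0.1 or 1, a minimum of 1 or 100 reads, totals without the 14 isotigs that were among the 10 most abundant in a library, the interval rule, and sums over isotigs of 1 matched protein. Centring on isotigs with a protein match and a limit on E-values were added after seeing the data. The software was R 4.3.3, scipy 1.17.1, pandas 2.3.3, numpy 2.4.6 and Python 3.11.15.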

Additional observations from a re-analysis of the deposited data

How the results depend on the processing

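Counts of called members changed with the read filter and the scaling. With no filter, 13 of 131 members were higher and 40 lower in deep aestivation than at non-aestivation, 18 and 21 at arousal than in deep aestivation, and 8 and 46 at arousal than at non-aestivation. Without the filter 1 read against 0 can pass 2-fold, and the shares of other isotigs at this setting are not given. Among the 31 members with at least 100 reads these counts were 2 and 4, 1 and 1, and 1 and 4. The interval rule left 2 higher at arousal than in deep aestivation. Centred on isotigs with a protein match, the median log2 ratio was 0.072 for deep aestivation and -0.063 for arousal against non-aestivation, and 6 members were higher and 11 lower at arousal than at non-aestivation. Centring subtracts the median of isotigs with a protein match, which was itself below 0. TMM and median-of-ratios factors each left 19 lower at arousal than at non-aestivation against 24 without them, since UCH-L3, HAUSP, E4A, UBASH3B and the RING finger and KH domain protein fell short of 2-fold. The shares of other isotigs called under these factors are not given. TMM factors moved the median of all isotigs by 0.11 (deep aestivation against non-aestivation) and 0.12 (arousal against non-aestivation). For the 24 members of the naming rule, 356 of 360 ratios kept their direction and their side of 2-fold under the pseudocounts and scalings tried, and the other 4 (UCH-L3 and the RING finger and KH domain protein under both factors) kept their direction below 2-fold. Centring is not counted among these settings, and under it others of the 24 crossed 2-fold. At arousal against non-aestivation, UBR2 went from -1.39 to -0.98 and the ubiquitin-specific processing protease from -1.16 to -0.75 in log2 ratio. No paired analysis was possible because each stage has 1 library. At about 1 M reads per library, a member with 20 reads in all gives a wide interval for a 2-fold difference.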

Other observations

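Ontology terms point to further transcripts of the ubiquitin system that carry none of the words used to choose the members. Leaving out proteasome names, 101 isotigs had such a term, and 71 of them had at least 20 reads summed. The group is mixed, since it also holds chaperones and the proteasome subunit PSMD3 under a short name. In deep aestivation 1 was higher and 21 lower than at non-aestivation, with 29.6% lower and a median log2 ratio of -0.42, beside 24.2% and -0.36 for isotigs with a protein match. At arousal 2 were higher and 21 lower than at non-aestivation, beside 25.6% of isotigs with a protein match that were lower. At arousal 1 was higher and 5 lower than in deep aestivation, beside 9.71%.

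The following were picked after their values were seen. Syvn1, a ligase of the endoplasmic reticulum that tags misfolded proteins, had 149, 109 and 95 reads at non-aestivation, deep aestivation and arousal and was not called. Ariadne-2, a ligase, had 33, 10 and 19 reads and was 3.11-fold lower in deep aestivation than at non-aestivation (1.5 to 7.07). A conjugating enzyme of the ubiquitin-like tag Ufm1 had 55, 22 and 27 reads, 2.36-fold lower in deep aestivation (1.41 to 4.06) and 2.08-fold lower at arousal (1.29 to 3.44) than at non-aestivation. A second SUMO match, named after the yeast SUMO gene SMT3, had 94, 66 and 44 reads and was 2.19-fold lower at arousal than at non-aestivation (1.51 to 3.20). Aos, a subunit of the SUMO activating enzyme, had 51, 32 and 43 reads and was not called.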
